A study of Mus musculus with 9 samples.

Results

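The genes described here are the organic ion transporters of the Slc22, Slco and Slc47 families in mouse kidney. Members were all protein-coding genes of the count tables whose mouse symbol starts with Slc22a, Slco or Slc47a, which gave 41 genes among 21995 protein-coding genes and 54532 gene identifiers in all. PolyA RNA was sequenced from kidneys of 3 groups on the C57BL/6J background, with 3 libraries per group. The groups were untreated wild-type (WT) mice, Trex1-/- mice that received PBS, and Trex1-/- mice that received SN-011, an antagonist of STING, over 2 weeks. TREX1 is an exonuclease that degrades DNA in the cytosol, and STING is the adaptor that carries the signal of the DNA sensor cGAS. Injections were daily and intraperitoneal and began at about 1 month of age, with PBS holding Tween 80 as the vehicle. The Trex1-/- mice came from matings of heterozygotes, while WT mice were bought, so genotype cannot be told apart from origin in the comparisons with WT. The labels do not tie libraries to separate animals and do not give their sex, so p-values measure the spread between these libraries only.

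These transporters move drugs, toxins, hormones and metabolites across the membranes of epithelial cells, and many of them sit in the proximal tubule of the kidney. Organic anion transporters of the Slc22 family take up anions such as p-aminohippurate and sulfated steroids from blood or return urate from urine, and organic cation transporters of the same family pass cations to the proton-coupled exporters of the Slc47 family. Slco genes encode organic anion transporting polypeptides, which carry bile acids, steroid conjugates, thyroid hormones and prostaglandins. Several of the mouse genes are known from earlier work to be expressed at different levels in male and female kidney.

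The 9 libraries held 16118813 to 21928965 counts. The Trex1 gene itself was listed at 0 counts in all 9 libraries, WT included. All of its exons also belong to exons of Atrip on the same strand, so the counts could not check the genotype. Ddx3y, Kdm5d, Eif2s3y and Uty, which are Y-linked, summed to 153.3 to 187.6 CPM (here scaled by total counts alone, without TMM factors) in 5 libraries (WT replicate 3, all 3 PBS libraries and SN-011 replicate 2) and to at most 0.378 CPM in the other 4 (WT replicates 1 and 2, SN-011 replicates 1 and 3). Xist, the X-inactivation RNA, had 434.5 to 502.7 CPM in those 4 and at most 0.453 CPM in the 5, and the 2 classes are called libraries with Xist and libraries with Y-linked reads. These 2 classes of library were read from the counts and are no groups of the study. No PBS library carried Xist, so among the Xist libraries genotype and SN-011 cannot be told apart. The proximal tubule markers Slc34a1 (4291 to 5559 CPM, counts scaled to library size) and Lrp2 (1428 to 2288 CPM) were high in every library. Of 5 adrenal cortex markers, Cyp11b2 was at 0 in all libraries, Cyp11b1, Cyp21a1 and Cyp11a1 stayed at or below 0.17 CPM, and Star had 4.59 to 8.004 CPM. In bulk tissue, fewer cells of a type and less RNA per cell cannot be told apart.

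Of the 41 members, 31 had a mean CPM of 1 or more over all 9 libraries. The library sizes behind CPM were adjusted by TMM factors. At 0.5 CPM the number was 33 and at 2 CPM it was 29. They included Slc22a2, a4, a5, a6, a7, a8, a12, a13, a14, a15, a17, a18, a19, a21, a22, a23, a26, a27, a28, a29 and a30, Slc47a1, and Slco1a1, 1a4, 1a6, 2a1, 2b1, 3a1, 4a1 and 4c1. Slc47a2 and Slc22a3 had a mean below 1 CPM but passed the edgeR filter on low counts, so 33 members were tested. The other 8 were not tested. Slco1c1, a thyroxine carrier of brain, Slco1b2, a carrier of liver, and Slco5a1, Slc22a20 and Slc22a16 had between 1 and 11 counts over all libraries. Slco1a5, Slco6c1 and Slco6d1 had none, which allows up to 0.137 to 0.186 CPM per library (3 counts, counting error only). The 41 members together held 5059 to 5951 CPM in WT, 5337 to 6283 CPM with PBS, and 3592, 7235 and 3908 CPM in SN-011 replicates 1, 2 and 3.

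**Figure D1:**
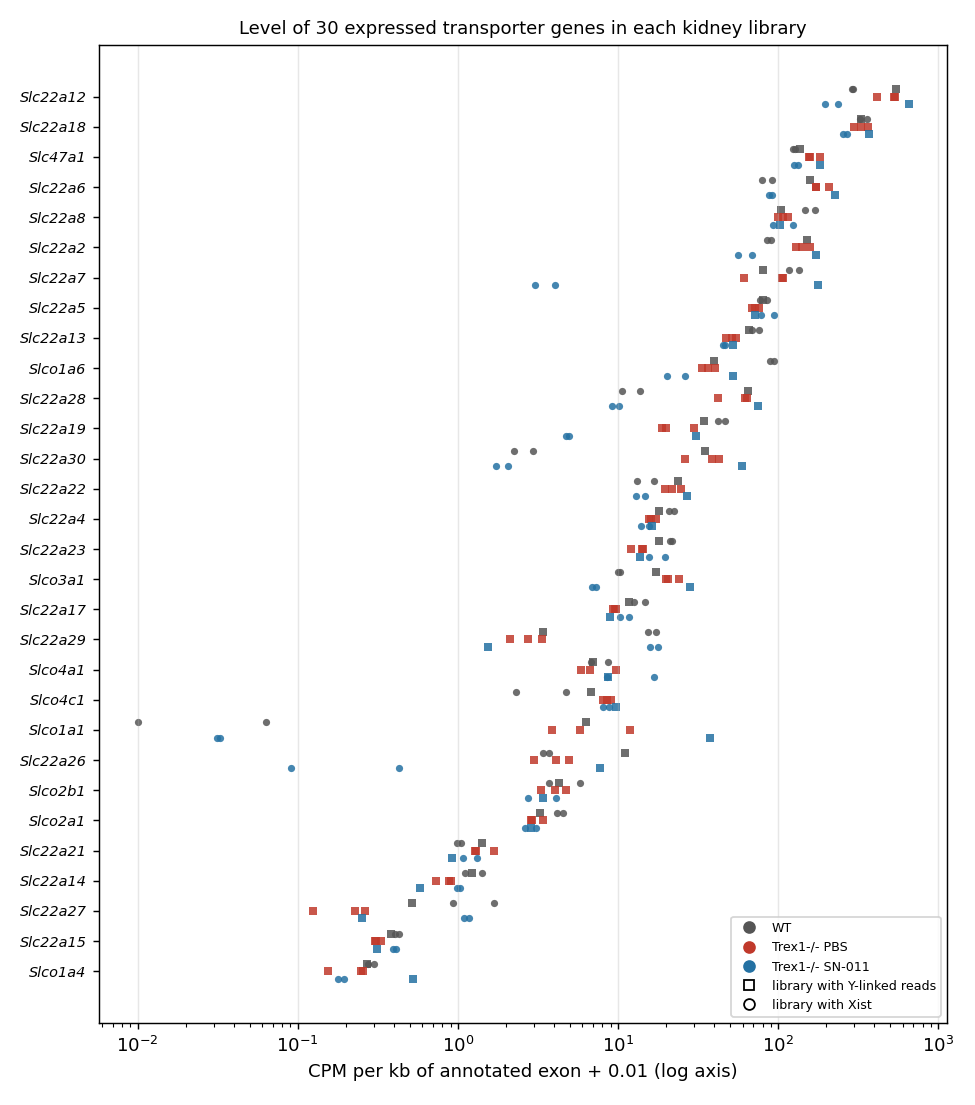
Level of 30 expressed transporter genes in each of the 9 libraries, in CPM per kb of annotated exon on a log axis with 0.01 added, genes in order of their mean. Colours are the groups, squares are libraries with Y-linked reads and circles are libraries with Xist. Slc22a12 had the highest mean (410 CPM per kb). For Slc22a7, Slc22a19 and Slc22a26 the 2 SN-011 circles lie left of all other points, and for Slco1a1 the 4 circles lie left of all squares.

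Levels were compared between genes only per kb of annotated exon. Members with a high mean were Slc22a12 at 410 CPM per kb, Slc22a18 at 322.7, Slc47a1 at 147.7 and Slc22a6 at 143.8 CPM per kb. Slc22a12 encodes URAT1, the apical urate exchanger. Slc47a1 encodes MATE1, the proton-coupled exporter of organic cations, and Slc22a6 encodes OAT1, the p-aminohippurate transporter. Slc22a18 is an imprinted gene of the superfamily. Of the exon bases of Slc22a12, 30.1% lie opposite exons of Nrxn2. Whether the counting used strand is not given in the sources used here, and without strand reads over these bases cannot be told apart. Nrxn2 was listed at 5.32 to 8.32 CPM per library and Slc22a12 at 447.1 to 1484 CPM. At the low end of the expressed members were Slc22a15 (0.354 CPM per kb) and Slco1a4 (0.257 CPM per kb).

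Sequences are shown for a set of neighbours on chromosome 19 whose levels turned on the class of library, and for Slco1a1 on chromosome 6, which did so by the widest margin among members. Slc22a19, Slc22a26, Slc22a27, Slc22a28, Slc22a29 and Slc22a30 are rodent relatives of the organic anion transporters and lie in that order between positions 7673061 and 8405111 of chromosome 19 (GRCm38), all on the minus strand, and Slc22a8 and Slc22a6 follow on the plus strand up to position 8628299. Slc22a28 and Slc22a30 shared 98.8% of 1656 aligned coding bases, and Slc22a27 and Slc22a29 shared 97.3% of 1653. Between those 2 pairs identity was 91.7% to 92.4%. The bases before the RefSeq start of each gene (GRCm38.p6) are given 5' to 3' on the gene's own strand, 250 bases each, for Slc22a28 (chr19:8131983-8132232), Slc22a30 (chr19:8405106-8405355), Slc22a29 (chr19:8218901-8219150), Slc22a27 (chr19:7966028-7966277) and Slco1a1 (chr6:141946963-141947212), all on the minus strand. Capitals mark matches, on either strand, to the HNF1 half-sites GTTAAC and GTTAAT, the nuclear receptor half-site AGGTCA, the androgen receptor half-site AGAACA and the STAT site TTCNNNGAA.
Slc22a28 promoter: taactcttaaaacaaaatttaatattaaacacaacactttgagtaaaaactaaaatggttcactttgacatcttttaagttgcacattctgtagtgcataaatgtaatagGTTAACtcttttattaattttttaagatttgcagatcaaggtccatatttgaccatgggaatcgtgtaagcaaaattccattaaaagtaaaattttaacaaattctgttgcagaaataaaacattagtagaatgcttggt
Slc22a30 promoter: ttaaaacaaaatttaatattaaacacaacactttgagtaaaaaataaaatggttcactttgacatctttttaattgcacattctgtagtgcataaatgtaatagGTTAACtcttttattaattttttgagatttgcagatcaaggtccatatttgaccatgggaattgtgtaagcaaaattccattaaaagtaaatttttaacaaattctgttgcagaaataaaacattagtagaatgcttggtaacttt
Slc22a29 promoter: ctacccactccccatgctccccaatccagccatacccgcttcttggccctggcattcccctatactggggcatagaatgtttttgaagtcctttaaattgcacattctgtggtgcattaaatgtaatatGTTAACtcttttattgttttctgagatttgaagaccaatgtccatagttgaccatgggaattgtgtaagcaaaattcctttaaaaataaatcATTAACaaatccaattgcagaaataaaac
Slc22a27 promoter: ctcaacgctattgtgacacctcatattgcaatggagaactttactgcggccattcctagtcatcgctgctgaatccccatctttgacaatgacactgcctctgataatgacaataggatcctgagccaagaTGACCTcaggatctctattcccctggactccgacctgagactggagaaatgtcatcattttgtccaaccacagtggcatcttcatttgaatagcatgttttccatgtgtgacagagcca
Slco1a1 promoter: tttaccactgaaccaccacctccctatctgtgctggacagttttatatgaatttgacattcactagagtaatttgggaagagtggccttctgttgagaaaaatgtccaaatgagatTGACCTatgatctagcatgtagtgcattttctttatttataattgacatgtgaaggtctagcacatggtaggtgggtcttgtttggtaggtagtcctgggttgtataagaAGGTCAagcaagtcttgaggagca

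The Slc22a28 and Slc22a30 windows were 97.5% identical over 244 aligned bases, and each held GTTAAC in the same surrounding sequence. The Slc22a29 window was 81.7% identical to that of Slc22a28 over 213 bases and 82.6% identical to that of Slc22a30 over 207, and held GTTAAC and, on the other strand, GTTAAT. The Slc22a27 window held AGGTCA on the other strand, and the Slco1a1 window held AGGTCA on both strands. GTTAAC, added after these sequences were seen, occurred in 2.56% of 32851 windows of the same length in the RefSeq table, GTTAAT in 6.43%, AGGTCA in 14.0%, AGAACA in 16.1% and TTCNNNGAA in 7.02%. Of 40 windows of 35 members, 5 held GTTAAC, 4 GTTAAT, 5 AGGTCA, 6 AGAACA and 7 TTCNNNGAA. A match is a match of letters only.

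The near-identical copies bear on the counts, since the authors kept uniquely mapped read pairs. Of the 100-base windows of the annotated transcripts, 37.0% in Slc22a28, 21.1% in Slc22a30, 7.51% in Slc22a29 and 7.31% in Slc22a27 also occur in a transcript of another gene, mostly of one another. The same share was 21.8% for Slc22a13 (with the pseudogene Slc22a13b-ps, itself at 0.467 to 1.04 CPM), 12.9% for Slc22a5 and 10.6% for Slc22a21 (with each other). It was 0 for 26 of the 41 members. Levels of the 7 genes named here may therefore be too low or split between copies.

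The class of library was the term with which most members were called. A term for the presence of Y-linked reads was fitted beside the 3 group means in edgeR's quasi-likelihood test, with Benjamini-Hochberg adjustment over all 16646 genes tested. Since no PBS library carried Xist, only WT and SN-011, with 1 library with Y-linked reads in each, set the term. With it 11 of the 33 tested members were called at an adjusted p under 0.05, 9 higher and 2 lower in libraries with Y-linked reads, where 3.65% of all genes were called (2.51% higher and 1.14% lower). Class values did not overlap for 9 members that were higher and 3 that were lower, against 8.96% of all genes (5.11% higher and 3.85% lower). The median absolute coefficient was 0.38 on the log2 scale for members and 0.17 for all genes.

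Slco1a1, a carrier of steroid conjugates and bile acids, had 0.283, 0 and 33.5 CPM in WT replicates 1, 2 and 3, then 30.7, 62.3 and 20.4 CPM with PBS, and 0.113, 197.5 and 0.119 CPM with SN-011. The 4 Xist libraries held between 0 and 6 counts each and the 5 others 329 to 3412. The coefficient was 9.55 ± 0.62 (SE, log2; edgeR adjusted p = 1.605e-05), and its exact size depends on the prior count because the low class is so near 0. No other member separated the classes by as much.

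Slc22a30 had 9.89, 7.53 and 118.5 CPM in WT, 87.7, 143.4 and 130.3 CPM with PBS, and 6.90, 199.7 and 5.81 CPM with SN-011. Its neighbour Slc22a28 had 27.5, 21.3 and 130.9 CPM in WT, 84.7, 128.5 and 123.8 CPM with PBS, and 20.2, 149.8 and 18.4 CPM with SN-011. In both genes each Xist library lay below each other library. The coefficients were 4.38 ± 0.26 for Slc22a30 (log2; edgeR adjusted p = 6.639e-06) and 2.69 ± 0.17 for Slc22a28 (adjusted p = 1.605e-05). Slc22a29, which lies between them and shares much of their upstream sequence, ran the other way. It had 39.5, 35.1 and 7.74 CPM in WT, 7.60, 4.78 and 6.21 CPM with PBS, and 36.3, 3.47 and 40.6 CPM with SN-011, a coefficient of -2.78 ± 0.26 (adjusted p = 2.372e-04). Slc22a27, the near copy of Slc22a29, had 1.98 to 3.61 CPM in the Xist libraries and 0.248 to 1.10 CPM in the others (-1.70 ± 0.40, adjusted p = 0.0416). Its call was lost without any 1 of WT replicates 2 and 3, PBS replicates 1 and 2 and the 3 SN-011 libraries (adjusted p = 0.0518 to 0.333, the last without SN-011 replicate 2).

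**Figure D2:**
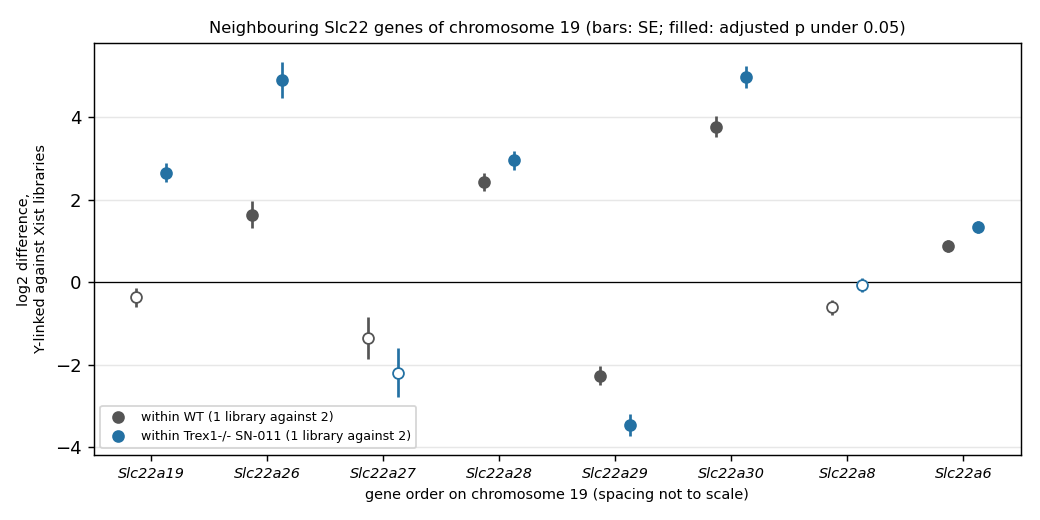
Log2 difference between the library with Y-linked reads and the 2 libraries with Xist, within WT and within SN-011, for the 8 Slc22 genes of the chromosome 19 stretch in gene order; bars are SE and filled points have an edgeR adjusted p under 0.05. Slc22a28 and Slc22a30 lie above 0 and Slc22a29 and Slc22a27 below 0 in both groups, and Slc22a19 is at -0.36 in WT and 2.66 with SN-011.

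Among the anion transporters of the proximal tubule, Slc22a6 had 367.3, 317.1 and 631.1 CPM in WT, 692.5, 833.0 and 689.1 CPM with PBS, and 351.5, 906.0 and 366.8 CPM with SN-011. Its coefficient was 1.12 ± 0.12 (log2; edgeR adjusted p = 8.108e-04). Slc22a12 had 664.1, 653.1 and 1229 CPM in WT, 934.3, 1193 and 1210 CPM with PBS, and 447.1, 1484 and 536.6 CPM with SN-011 (1.26 ± 0.16, adjusted p = 0.00163). Slc22a22, a prostaglandin transporter, had 31.4 to 41.1 CPM in Xist libraries and 47.9 to 66.1 CPM in the others (0.81 ± 0.13, adjusted p = 0.00677, and 0.139 without SN-011 replicate 2). Of these 3 genes none had classes that overlapped. Slc22a8, which encodes OAT3 beside Slc22a6 on the chromosome, was not called (-0.33 ± 0.15, adjusted p = 0.286), with 361.5 to 662.2 CPM in Xist libraries and 390.6 to 451.2 CPM in the others.

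Of the organic cation transporters, Slc22a2 (OCT2) had 212.6, 225.8 and 373.9 CPM in WT, 320.6, 393.7 and 350.4 CPM with PBS, and 139.5, 428.5 and 170.8 CPM with SN-011 (1.13 ± 0.15, edgeR adjusted p = 0.00216). Slc47a1 had 418.1 to 451.9 CPM in Xist libraries and 462.6 to 621.4 CPM in the others, which do not overlap, and was not called (0.31 ± 0.11, adjusted p = 0.164, and 0.0423 without WT replicate 3). Slco3a1, a prostaglandin and thyroxine carrier, had 84.8, 87.6 and 145.8 CPM in WT, 173.7, 202.5 and 168.2 CPM with PBS, and 61.6, 238.4 and 58.2 CPM with SN-011 (1.42 ± 0.21, adjusted p = 0.00403, and 0.76 without SN-011 replicate 2). Slc22a26 was called (2.95 ± 0.53, adjusted p = 0.0131, lost without SN-011 replicate 1 at an adjusted p of 0.0523). Its coefficient was 1.63 without SN-011 replicate 2 and 4.91 without WT replicate 3, and its WT Xist libraries (10.03 and 10.9 CPM) lay within the range of the other class (8.82 to 32.5 CPM). Slc22a18 was not called (0.24 ± 0.13, adjusted p = 0.387), and its adjusted p was 0.0475 without WT replicate 3.

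**Figure D3:**
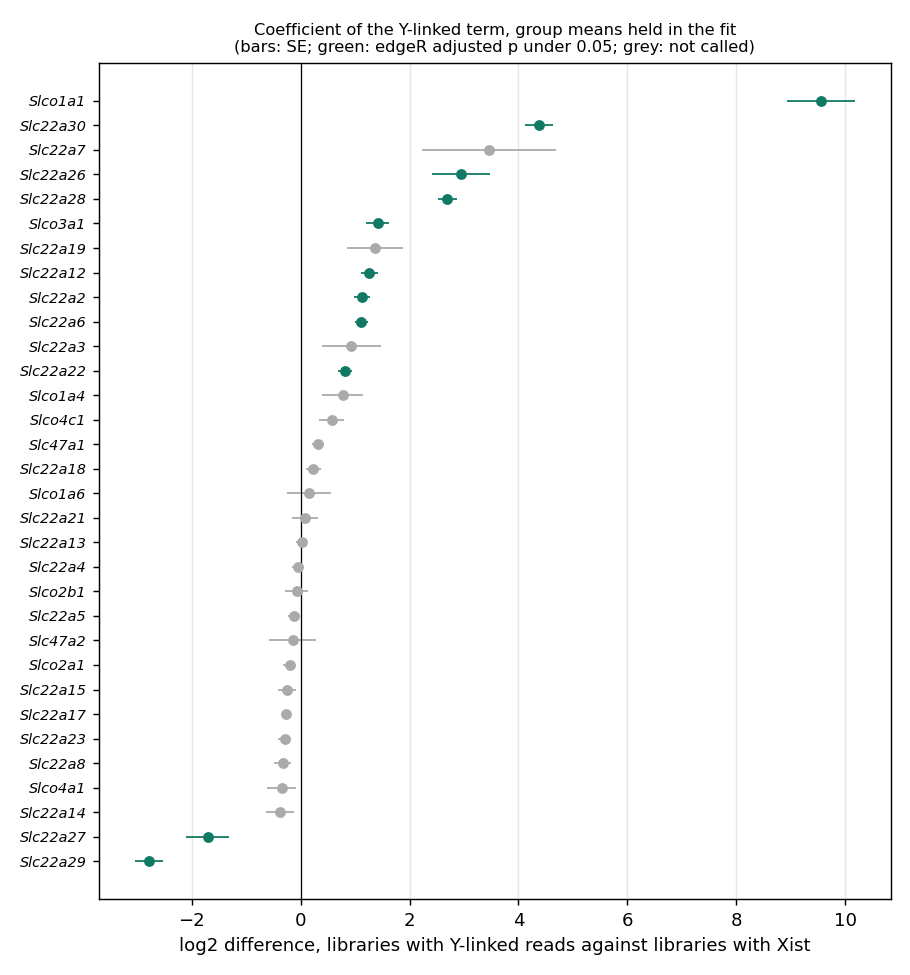
Coefficient of the term for Y-linked reads (log2 difference, with group means in the fit) for 32 tested members; bars are SE, green points have an edgeR adjusted p under 0.05 and grey points do not. Slco1a1 (9.55) and Slc22a30 (4.38) lie farthest to the right of the called members and Slc22a29 (-2.78) farthest to the left, while Slc22a7 (3.45) has an SE of 1.23 and was not called.

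The same contrast was also split by group, within WT and within SN-011, in a fit with a mean for each group and class. It rests on the same libraries that set the term, so it is no separate evidence. In this fit the class with Y-linked reads has 1 library in each of these groups and is assumed to vary like the others. Within WT, 8 members were higher and 2 lower in the library with Y-linked reads (1.22% of all genes called), and within SN-011, 14 were higher and 1 lower (7.02% of all genes called). Slco1a1, Slc22a30, Slc22a28, Slc22a26, Slco3a1, Slc22a6, Slc22a12 and Slc22a2 were higher in both groups and Slc22a29 was lower in both. Slco1a6, a relative of Slco1a1, changed sign, with -1.21 ± 0.17 in WT (edgeR adjusted p = 0.00694) and 1.18 ± 0.16 with SN-011 (adjusted p = 0.00161).

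The comparison of Trex1-/- with PBS against WT asks which transporters differ in kidney without TREX1. Of the 33 members tested 1 was called, Slc22a13, and it was lower, where 1.88% of all genes were called (1.44% higher and 0.439% lower). The gene lies on chromosome 9, as do Trex1 and the members Slc22a14 and Slco2a1, and the part of this position was not tested. Slc22a13 encodes OAT10, a urate and nicotinate exchanger. It had 138.4, 153.0 and 131.9 CPM in WT and 94.2, 103.4 and 109.1 CPM with PBS, which do not overlap, a log2 fold change of -0.47 ± 0.10 (edgeR adjusted p = 0.0403). With the term for Y-linked reads it was -0.48 ± 0.12 (adjusted p = 0.0965), and no member was called, where 1.19% of all genes were (0.907% higher and 0.282% lower). The call was also lost without any 1 of WT replicates 1 and 2, the 3 PBS libraries and SN-011 replicate 3 (adjusted p = 0.0526 to 0.184, the last without WT replicate 2). Between the libraries with Y-linked reads alone the fold change was -0.37 (adjusted p = 0.202 in the fit with a mean per group and class).

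PBS and WT values did not overlap for 15 of the 33 members, 4 higher with PBS and 11 lower, against 25.3% of all genes tested (13% higher and 12.3% lower). The higher ones were Slc47a1 (438.1 ± 22.6 CPM in WT and 562.5 ± 51.2 CPM with PBS, SD, n = 3), Slc22a6, Slco3a1 and Slco4c1. The lower ones were Slc22a13, Slc22a5, Slc22a19, Slc22a4, Slc22a23, Slc22a17, Slc22a29, Slc22a14, Slc22a27, Slc22a15 and Slco1a4. The median fold change of members was -0.18 and the median absolute one 0.39, beside 0.00 and 0.16 for all genes. Of the WT libraries 2 of 3 carried Xist and of the PBS libraries 0 of 3, and the part of this in the fold changes cannot be read from these medians. With the term for Y-linked reads the median of members was -0.25 and the median absolute one 0.27, beside 0.00 and 0.16 for all genes. Without the term 21 of the 33 fold changes were below 0, and with it 26 were. With no Xist library in the PBS group, the fit with the term applies to PBS a class difference set by WT and SN-011. Between the libraries with Y-linked reads alone, with 1 of WT, the median of members was -0.12, beside 0.01 for all genes. There 11 of the 33 fold changes were above 0.

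None of the 4 members of high level per kb was called. The fold change of PBS against WT was 0.39 ± 0.41 for Slc22a12 (log2; edgeR adjusted p = 0.702), and -0.39 with the term for Y-linked reads. It was -0.03 ± 0.15 for Slc22a18 (adjusted p = 0.942). It was 0.36 ± 0.14 for Slc47a1 (adjusted p = 0.273) and 0.75 ± 0.36 for Slc22a6 (adjusted p = 0.359), and 0.15 and 0.07 for these genes with the term. Slc22a26 was lower with PBS between libraries with Y-linked reads (8.82, 12.1 and 14.7 CPM against 32.5 CPM in the 1 WT library; -1.46 ± 0.30, adjusted p = 0.0472, with the 1 WT library assumed to vary like the other groups), where 1.33% of all genes were called (0.847% higher and 0.487% lower).

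**Figure D4:**
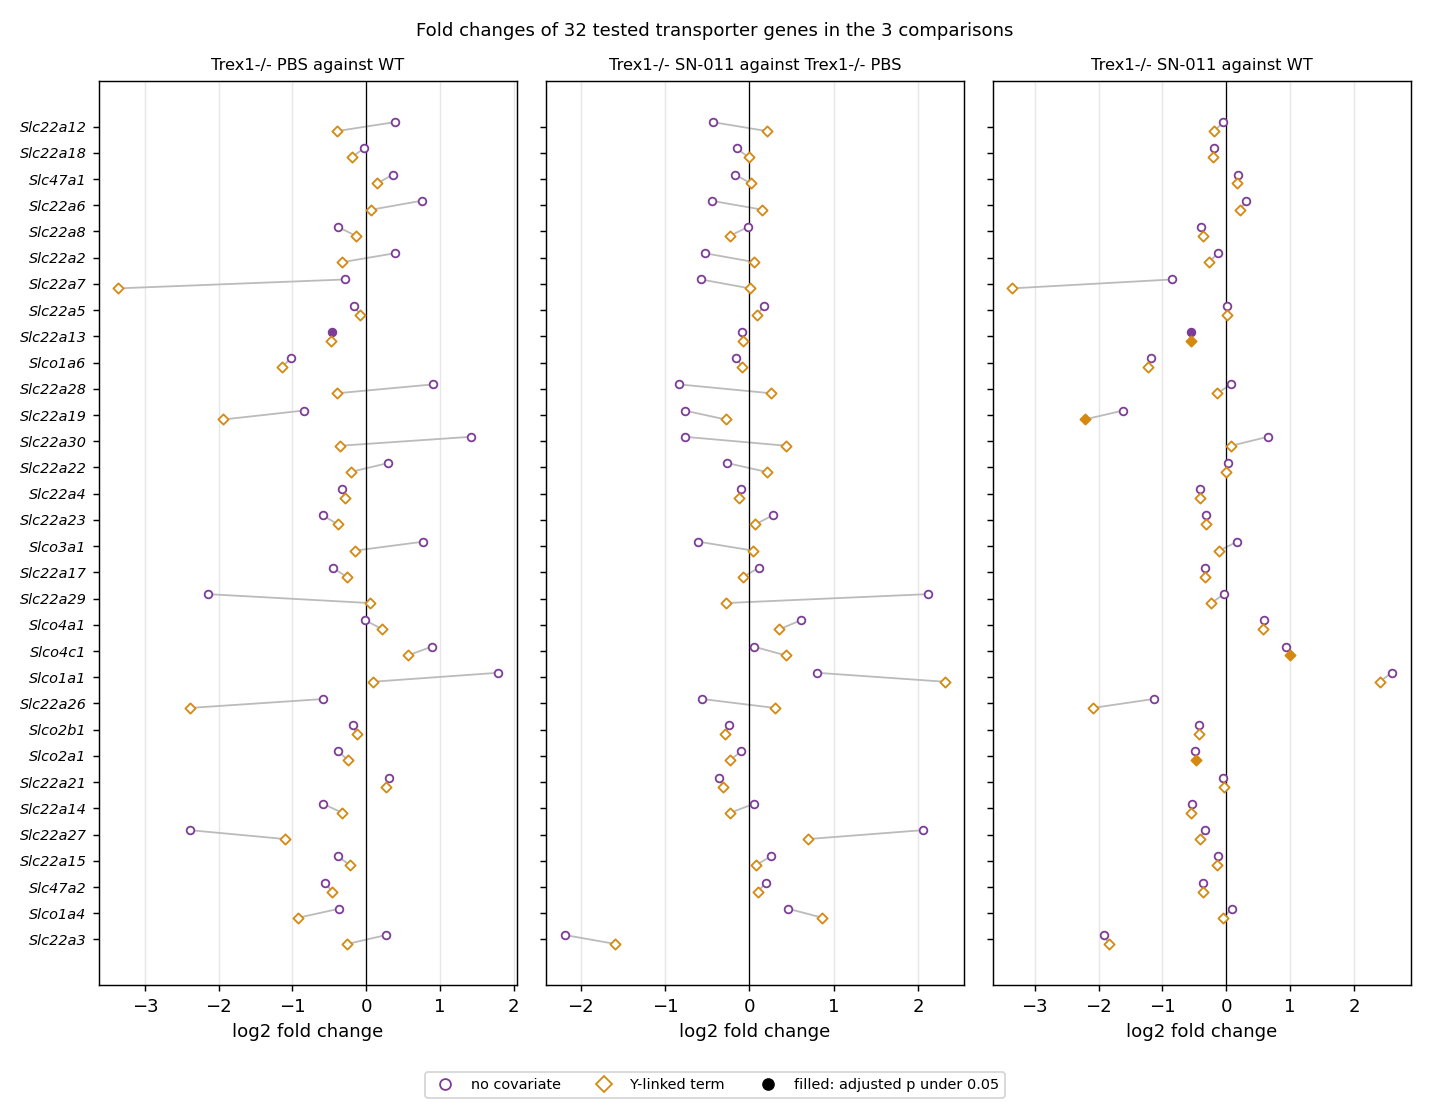
Log2 fold changes of 32 tested members in the 3 comparisons, circles without a covariate and diamonds with the term for Y-linked reads, filled where the edgeR adjusted p was under 0.05; genes are in order of mean CPM per kb. The grey lines join the 2 fits and are long for Slc22a7, Slc22a29 and Slc22a30 with PBS against WT, and short for Slc22a13, which is filled in both fits of SN-011 against WT.

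The comparison of SN-011 with PBS among Trex1-/- mice asks what 2 weeks of the STING antagonist changed. The edgeR test called 0 of 16646 genes (0% of all genes) and so 0 of the 33 members. At an unadjusted p under 0.05 it gave 4 members and 1905 genes (11.4%), while the DESeq2 Wald test called 0 members and 183 genes and edgeR's exact test 0 members and 127 genes. Values did not overlap for 1 member, Slc22a3 (OCT3), which had 0.791, 0.816 and 1.37 CPM in PBS libraries and 0.283, 0.174 and 0.178 CPM after SN-011, from 3 to 22 counts a library (-2.19 ± 0.60, edgeR adjusted p = 0.252). Groups did not overlap for 16.1% of all genes, 7.72% higher and 8.42% lower.

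Of the SN-011 libraries replicate 2 carried Y-linked reads and replicates 1 and 3 Xist. Without SN-011 replicate 2, 8 members were called, 2 higher and 6 lower, and 519 genes in all, and class and treatment can then not be told apart. Slc22a12 was among them (-1.18 on the log2 scale, edgeR adjusted p = 0.0426). Between SN-011 replicate 2 and the 3 PBS libraries, which are of 1 class, Slco1a1 was higher (197.5 CPM against 30.7, 62.3 and 20.4 CPM; 2.38 ± 0.40, adjusted p = 0.0327), where 0.493% of all genes were called (0.409% higher and 0.0841% lower). No other member passed there, and the value rests on 1 SN-011 library.

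For the 4 members of high level per kb, SN-011 against PBS gave -0.44 ± 0.41 for Slc22a12 (log2; edgeR adjusted p = 0.729) and -0.15 ± 0.15 for Slc22a18 (adjusted p = 0.731). It gave -0.17 ± 0.14 for Slc47a1 (adjusted p = 0.688) and -0.45 ± 0.36 for Slc22a6 (adjusted p = 0.677). Without SN-011 replicate 2 the last 2 were -0.36 (adjusted p = 0.0878) and -1.04 (adjusted p = 0.0520), and Slc22a18 was -0.35 (adjusted p = 0.104). With the term for Y-linked reads these values were 0.20, -0.01, 0.02 and 0.15. The median over members was -0.10 without the term and 0.04 with it, beside -0.01 for all genes in both fits.

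SN-011 against WT compares mice that differ in genotype and treatment together. Slc22a13 was the 1 member called, again lower (90.2, 104.2 and 93.4 CPM with SN-011; -0.56 ± 0.10, edgeR adjusted p = 0.0268), where 1.28% of all genes were called (0.457% lower). With the term for Y-linked reads it was -0.56 ± 0.10 (adjusted p = 0.0128). Between the lone libraries with Y-linked reads it was -0.34, and between those with Xist -0.67. Without the term the call was lost without any 1 of WT replicates 1 and 2, PBS replicate 2 and SN-011 replicates 1 and 3 (adjusted p = 0.0538 to 0.117, the last without WT replicate 2). The comparison shares its WT libraries with that of PBS. Values of the 2 groups did not overlap for 1 member that was higher, Slco4c1, and 6 that were lower, against 21.7% of all genes (11.8% higher and 10% lower). The lower ones were Slc22a13, Slc22a19, Slc22a4, Slc22a14, Slc22a3 and Slco2a1.

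With the term for Y-linked reads 4 members were called in SN-011 against WT, where 3.94% of all genes were called (2.03% higher and 1.91% lower). Slco4c1, the organic anion carrier of the basolateral side of kidney tubules, was higher. It had 11.4, 23.3 and 33.3 CPM in WT, 41.7, 44.3 and 39.7 CPM with PBS, and 39.7, 47.4 and 42.9 CPM with SN-011, so the WT libraries were the 3 lowest. Its fold change was 0.998 ± 0.22 with the term (edgeR adjusted p = 0.0377) and 0.94 ± 0.29 without it (adjusted p = 0.136, and 0.0342 without WT replicate 3). Slco2a1, the prostaglandin transporter, was lower with 61.1, 56.2 and 44.1 CPM in WT and 41.5, 38.6 and 35.3 CPM with SN-011. Its fold change was -0.47 ± 0.12 with the term (adjusted p = 0.0496) and -0.49 ± 0.13 without it (adjusted p = 0.0947, and 0.0334 without WT replicate 3). Between the lone libraries with Y-linked reads Slco2a1 was at -0.19 and Slco4c1 at 0.51. Between the libraries with Xist they were at -0.61 and 1.25. The other 2 were Slc22a13 and Slc22a19 (-2.22 ± 0.52, adjusted p = 0.0418). Without the term Slc22a19 was at -1.62 ± 0.61 (adjusted p = 0.202), and it was called in 5 of 23 alternatives, with values from -3.20 to -0.16. Between the lone libraries with Y-linked reads it was at -0.18 (adjusted p = 0.744), and without SN-011 replicate 2 at -3.09 (adjusted p = 1.771e-04).

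The 2 SN-011 libraries with Xist held the lowest level of several members. Slc22a7 encodes OAT2, a carrier of nucleotides and prostaglandins. It had 283.4, 246.2 and 170.2 CPM in WT, 129.7, 220.9 and 225.2 CPM with PBS, and 6.39, 372.3 and 8.48 CPM in SN-011 replicates 1, 2 and 3. Both Xist libraries of the SN-011 group lay below all others, and replicate 2 above all others. Slc22a19, an organic anion transporter of the chromosome 19 stretch, had 230.5, 252.6 and 188.0 CPM in WT, 101.7, 107.9 and 162.7 CPM with PBS, and 26.8, 166.0 and 25.8 CPM with SN-011. Slco1a6 had 358.2, 341.4 and 151.7 CPM in WT, 126.7, 154.0 and 139.1 CPM with PBS, and 99.7, 200.2 and 76.6 CPM with SN-011. Slc22a26 had 10.03, 10.9 and 32.5 CPM in WT, 8.82, 12.1 and 14.7 CPM with PBS, and 1.25, 22.6 and 0.237 CPM with SN-011. In all 4 genes the 2 Xist libraries of SN-011 lay below every other library. The same order held for other members, among them Slc22a12, Slc22a2, Slc22a18, Slc22a28, Slc22a30, Slco3a1, Slc22a13 and Slc22a4. The share of all genes with this order was not computed.

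**Figure D5:**
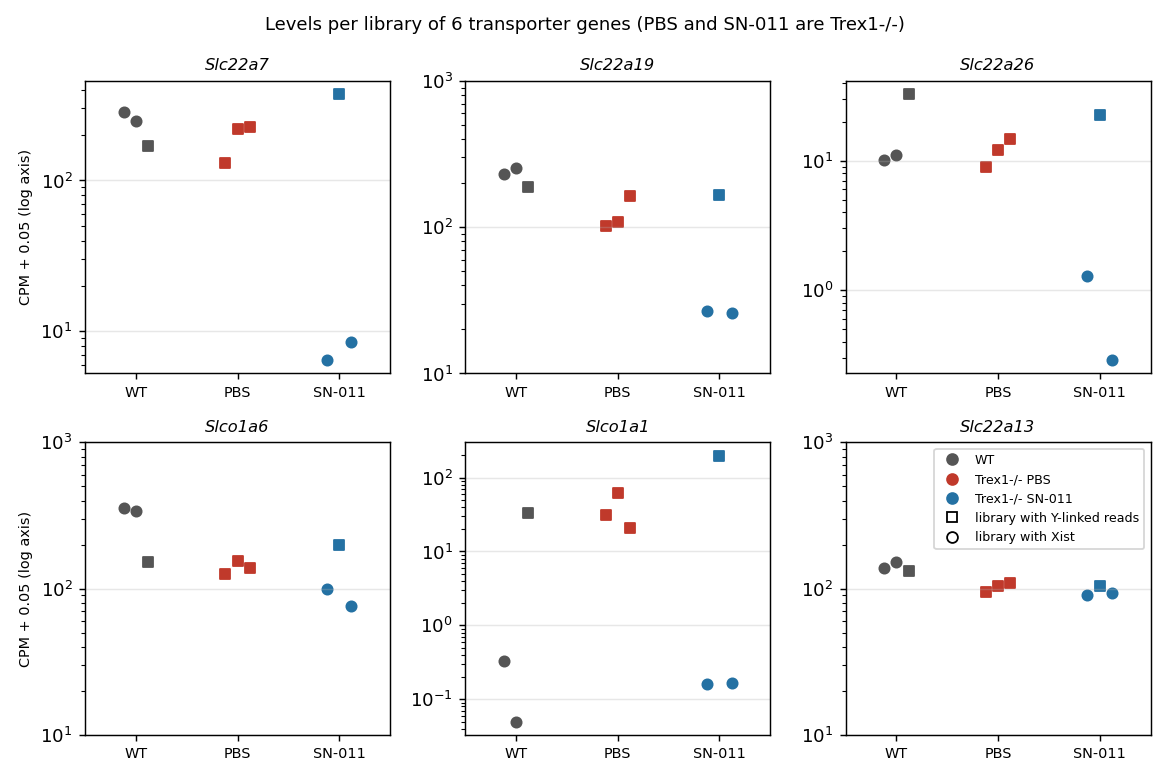
CPM of 6 transporter genes in each library on log axes with 0.05 added, by group; squares are libraries with Y-linked reads and circles libraries with Xist. For Slc22a7, Slc22a19, Slc22a26 and Slco1a6 the 2 SN-011 circles are the lowest points and the 2 WT circles are not. Slco1a1 has its 4 circles below all squares, and Slc22a13 has its 3 WT points above the others.

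A mean per group and class, a fit added after these values were seen, compared SN-011 with WT within each class. Between the Xist libraries (2 against 2) 9 of 33 members were called, where 3.5% of all genes were called (1.35% higher and 2.15% lower). The 8 lower with SN-011 were Slc22a7 (-5.16 ± 0.28, edgeR adjusted p = 1.641e-05), Slc22a19 (-3.20 ± 0.21, adjusted p = 4.335e-05), Slco1a6 (-1.99 ± 0.14, adjusted p = 5.356e-05), Slc22a26 (-3.79 ± 0.42, adjusted p = 0.00105), Slc22a13 (-0.67 ± 0.10, adjusted p = 0.00550), Slc22a4 (-0.55 ± 0.10, adjusted p = 0.0175), Slco2a1 (-0.61 ± 0.12, adjusted p = 0.0235) and Slco3a1 (-0.53 ± 0.11, adjusted p = 0.0272). Slc22a4 encodes OCTN1, the ergothioneine transporter. Slco4c1 was higher (1.25 ± 0.24, adjusted p = 0.0192). The median over members was -0.34, beside 0.01 for all genes.

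Between the libraries with Y-linked reads, 1 SN-011 library against 1 of WT, neither side has a replicate, and the fit assumes that each lone library varies like the other groups. Under that assumption 2 members passed, Slco1a1 at 2.56 ± 0.57 (edgeR adjusted p = 0.0481) and Slco3a1 at 0.71 ± 0.15 (adjusted p = 0.0425), where 2.46% of all genes did. The difference between the 2 classes in the change from WT to SN-011 was tested as an interaction, which rests on the same 2 lone libraries and the same assumption. It was called for 5 members, all with a lower change in the Xist libraries, where 0.499% of all genes were called. The differences were -6.29 ± 0.44 for Slc22a7 (adjusted p = 3.105e-04), -2.39 ± 0.24 for Slco1a6 (adjusted p = 0.00190), -3.02 ± 0.34 for Slc22a19 (adjusted p = 0.00410), -1.24 ± 0.19 for Slco3a1 (adjusted p = 0.0227) and -3.27 ± 0.59 for Slc22a26 (adjusted p = 0.0476). For Slco3a1 it was lost without WT replicate 1 (adjusted p = 0.0977) or 2 (0.101). For Slc22a26 it was lost without WT replicates 1 or 2 (0.139 and 0.136) or PBS replicates 2 or 3 (0.0522 and 0.0660). Leaving out a lone library of a class leaves no such test.

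Other values moved with these. Kap, a proximal tubule gene that responds to androgen, had 646.8 and 3604 CPM in SN-011 replicates 1 and 3, 18760 CPM in replicate 2 and 6284 to 13020 CPM in WT and PBS libraries. The summed level of the 10 proximal tubule markers, of which Kap is a large part, was 12280 and 16280 CPM in SN-011 replicates 1 and 3, 34730 CPM in replicate 2, 19450 to 25770 CPM in WT and 21280 to 27140 CPM with PBS. Of the 10, only Slc7a13 was called between the Xist libraries, and it was higher with SN-011 (2.998 ± 0.43, edgeR adjusted p = 0.00415). Slc34a1 had 4291 and 4999 CPM in SN-011 replicates 1 and 3 against 5067 and 4823 CPM in WT replicates 1 and 2 (-0.09 ± 0.13, adjusted p = 0.777). Ghr, the growth hormone receptor, had 325.1 and 248.2 CPM in SN-011 replicates 1 and 3 and 660.7 to 832.2 CPM in the 7 other libraries (-1.22 ± 0.13 between Xist libraries, adjusted p = 8.547e-04). The part of these in the members' levels was not tested.

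The summed level of 7 leukocyte markers was 20.7 to 29.0 CPM in WT, 39.4 to 48.9 CPM with PBS and 21.3 to 39.9 CPM with SN-011. All 5 that were tested had an unadjusted p under 0.05 in PBS against WT and 0 were called. The part of leukocytes in the members' levels was not tested. Between the Xist libraries, SN-011 against WT, Serpina1a of the hepatocyte markers was higher (3.62 ± 0.40, edgeR adjusted p = 0.00105) and Alb lower (-1.98 ± 0.28, adjusted p = 0.00408). Of the regulators Esr1 was higher there (0.92 ± 0.15, adjusted p = 0.00661). The part of these in the members' levels was not tested. In the 3 comparisons over all libraries, the markers of podocytes (347.4 to 472.9 CPM summed) and of endothelium (383.6 to 510.5 CPM) gave 0 calls in either fit. So did those of collecting duct (1003 to 1717 CPM), thick ascending limb and distal tubule (9047 to 11440 CPM), adipocytes (86.8 to 285.8 CPM) and adrenal cortex (4.59 to 8.10 CPM). Of the 5 hepatocyte markers (56.6 to 213.5 CPM summed), Serpina1a was higher in SN-011 against WT (2.61 ± 0.53, edgeR adjusted p = 0.0479, and 2.76 with the term for Y-linked reads). Of 5 tubular injury markers (20.8 to 60.0 CPM summed), Havcr1 was lower in PBS against WT with the term (-2.16 ± 0.38, adjusted p = 0.0205), where WT replicate 3 had the highest level and the other 8 libraries 0.415 to 4.98 CPM.

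Among the genes that work with these transporters, 9 efflux pumps of the Abc family, 10 dicarboxylate and urate carriers, 4 bile acid and steroid carriers, 5 scaffold genes, 18 regulators and 8 genes of carnitine handling were followed. None of them was called in PBS against WT, in SN-011 against PBS or in SN-011 against WT without the term for Y-linked reads. The glucose transporter Slc5a2, a proximal tubule marker, was lower in PBS against WT (-0.71 ± 0.13, edgeR adjusted p = 0.0163), a call lost with the term (-0.58 ± 0.13, adjusted p = 0.0701). In SN-011 against WT it was called with the term (-0.50 ± 0.11, adjusted p = 0.0314) and not without it (-0.50 ± 0.13, adjusted p = 0.0867). With the term, Slc5a8, a sodium-coupled monocarboxylate carrier, was higher in PBS against WT (0.75 ± 0.13, adjusted p = 0.0205). It had 102.5, 111.0 and 232.0 CPM in WT and 364.7, 402.3 and 365.7 CPM with PBS. In SN-011 against WT with the term, Slc5a8 (0.82 ± 0.11, adjusted p = 0.00359), Slc16a9 (0.34 ± 0.08, adjusted p = 0.0416), Slc7a13 (2.15 ± 0.49, adjusted p = 0.0395) and Bcl6 (1.06 ± 0.21, adjusted p = 0.0258) were higher, and Abcc3 (-1.45 ± 0.30, adjusted p = 0.0294) and Slc17a2 (-2.57 ± 0.52, adjusted p = 0.0264) were lower.

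With the term, the difference between the classes of library was called for more of them, and for 3.65% of all genes (2.51% higher and 1.14% lower). Of 9 efflux pumps 1 was higher in libraries with Y-linked reads (Abcc2, 0.67 ± 0.11, edgeR adjusted p = 0.00704) and 3 were lower (Abcc3 at -3.61 ± 0.39, adjusted p = 6.211e-04; Abcb1b at -1.69 ± 0.22, adjusted p = 0.00188; Abcc4 at -0.80 ± 0.10, adjusted p = 0.00155). Abcc2 sits on the apical side and Abcc3 on the basolateral side of epithelial cells. Of 10 dicarboxylate and urate carriers Slc17a3 (1.53 ± 0.28, adjusted p = 0.0125) and Slc5a8 (1.05 ± 0.11, adjusted p = 5.237e-04) were higher and Slc17a2 (-2.71 ± 0.64, adjusted p = 0.0459) lower. Of 8 carnitine genes 4 were higher (Crot, Aldh9a1, Cpt2 and Tmlhe, 0.51 to 1.54) and 0 lower, while the carnitine transporter Slc22a5 itself was not called (-0.12 ± 0.11, adjusted p = 0.600). Slc51a, a subunit of the basolateral steroid and bile acid carrier, was higher (1.05 ± 0.24, adjusted p = 0.0413), and 0 of 5 scaffold genes were called. Of 17 regulators tested the bile acid receptor Nr1h4 was higher (0.97 ± 0.17, adjusted p = 0.0126) and the prolactin receptor Prlr lower (-1.94 ± 0.23, adjusted p = 0.00109). Prlr had 50.1 to 125.1 CPM in libraries with Y-linked reads and 215.7 to 297.0 CPM in those with Xist.

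Markers of cell types moved with the classes of library too. Of 10 proximal tubule markers, 2 were called higher in libraries with Y-linked reads and 1 lower. Slc7a13, an amino acid transporter, had 489.2 to 870.3 CPM in those libraries and 2.26 to 47.02 CPM in those with Xist (5.42 ± 0.496, edgeR adjusted p = 2.128e-04). Acsm2, an acyl-CoA synthetase, had 2532 to 4032 CPM against 988.2 to 1251 CPM (1.55 ± 0.159, adjusted p = 4.722e-04). Miox, the inositol oxygenase, was lower, with 1178 to 1494 CPM against 1837 to 2367 CPM (-0.59 ± 0.12, adjusted p = 0.0204). Kap did not overlap between the classes and was not called (2.11 ± 0.62, adjusted p = 0.0952), and Lrp2 (0.09 ± 0.14, adjusted p = 0.801) and Slc34a1 (0.10 ± 0.11, adjusted p = 0.712) were not called either. Of 5 tubular injury markers Havcr1 was higher (2.92 ± 0.36, adjusted p = 0.00134), with 2.43 to 4.98 CPM in 4 libraries with Y-linked reads, its highest level in WT replicate 3, and 0.415 to 1.65 CPM in those with Xist. The markers of leukocytes, hepatocytes, podocytes, endothelium, collecting duct, thick ascending limb and distal tubule, adipocytes and adrenal cortex gave 0 calls for this term by edgeR, with 0 to 3 genes of each list at an unadjusted p under 0.05. The part of the marker genes in the members' levels was not tested.

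None of the 4 members of high level per kb was called in SN-011 against WT. Their values were -0.05 ± 0.41 for Slc22a12 (log2; edgeR adjusted p = 0.970), -0.19 ± 0.15 for Slc22a18 (adjusted p = 0.558), 0.19 ± 0.14 for Slc47a1 (adjusted p = 0.545) and 0.31 ± 0.36 for Slc22a6 (adjusted p = 0.710). The SD of SN-011 libraries was 574.6 CPM about a mean of 822.6 CPM for Slc22a12 and 315.8 CPM about 541.5 CPM for Slc22a6.

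Slc22a5, which encodes the carnitine transporter OCTN2, had 212.1 to 289.4 CPM over all libraries and was called in none of the tests. Slc22a23, an orphan, had a mean of 129.7 CPM in WT (SD 12.1, n = 3), 86.5 CPM in PBS libraries (SD 8.46) and 104.6 CPM after SN-011 (SD 19.6), with no overlap between WT and PBS (-0.58 ± 0.14, edgeR adjusted p = 0.0682, and -0.38 with the term for Y-linked reads, adjusted p = 0.267). Slc22a17, a proposed receptor for lipocalin-2, had 58.8 ± 7.002 CPM in WT and 43.1 ± 1.15 CPM with PBS (-0.45 ± 0.12, edgeR adjusted p = 0.0942, and -0.27 with the term, adjusted p = 0.396). Of the low members, Slc22a21 had 3.30 to 6.08 CPM, Slc22a14 1.39 to 3.44 CPM, Slc22a15 4.20 to 6.00 CPM and Slco1a4 0.931 to 3.30 CPM over all libraries. Slco4a1 had 35.9 ± 5.08 CPM in WT, 35.6 ± 9.79 in PBS libraries and 54.1 ± 22.6 after SN-011, and Slco2b1 had 27.2 ± 6.37, 24.0 ± 4.18 and 20.3 ± 4.02 CPM. None of these passed in the 3 comparisons in either fit.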

How the data were processed

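PolyA RNA of mouse kidney was sequenced as read pairs in 9 libraries, 3 per group. According to the study's methods and the submitters' processing notes, the authors trimmed reads with Trimmomatic, aligned them to mm10 with HISAT2 and deposited raw counts of unique read pairs per Ensembl gene from featureCounts. Versions, annotation and the strand setting are not given in the sources used here. Libraries held 16118813 to 21928965 counts, and a count of 0 allows up to 0.137 to 0.186 CPM.

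Symbols and positions came from GENCODE vM21 of GRCm38, which matched 54495 of 54532 identifiers. Members are all protein-coding genes with symbols starting Slc22a, Slco or Slc47a. Members, lists and the Y-linked term were chosen with earlier results of these data known. Counts were tested in R 4.3.3 with edgeR 4.0.16 (quasi-likelihood F test, TMM, filterByExpr with a minimum of 10 counts and 15 in total, Benjamini-Hochberg over 16646 genes), with 1 fit of all 9 libraries and a mean per group. SE were derived from F. The Y-linked term marks libraries with at least 10 CPM summed over Ddx3y, Kdm5d, Eif2s3y and Uty. Fold changes are given for members called in a comparison with or without this term, and for the 5 members with the highest CPM per kb, of which 1 is not reported here. Slc22a3, Slc22a7, Slc22a8, Slc22a17, Slc22a23 and Slc22a5 were also given values after these were seen. Of other lists, genes called in the group comparisons or for the Y-linked term over all libraries are named, and only some of those called within a class of library; Kap, Slc34a1, Lrp2, Ghr and the adrenal markers were named after their values were seen. A fit with a mean per group and class was added later.

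The steps were tested on simulated data. Alternatives were DESeq2 1.42.0 size factors and its Wald test, upper-quartile factors, other filters, edgeR's exact test, limma-voom (limma 3.58.1), a replicate block, only the libraries of a comparison or class, and leaving out each library. Promoter windows came from the RefSeq table of GRCm38.p6, which held entries for 35 of the 41 members. Slc22a7, Slc47a1, Slc22a21, Slco3a1 and Slco5a1 were among those without an entry. Libraries with identical values were not found (Pearson's r across genes 0.966 to 0.993 within groups).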

Additional observations from a re-analysis of the deposited data

Results flagged for a closer look

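For 5 members the change from WT to SN-011 differed between the libraries with Xist (2 against 2) and those with Y-linked reads (1 against 1), by an interaction test in edgeR over 16646 genes, of which 83 (0.499%) were called. The difference was -6.29 on the log2 scale for Slc22a7, -2.39 for Slco1a6, -3.02 for Slc22a19, -1.24 for Slco3a1 and -3.27 for Slc22a26. Each change was lower in the Xist libraries. Since no PBS library carried Xist, the part of genotype and of SN-011 in these differences cannot be told apart, and each change in the libraries with Y-linked reads rests on 1 library per group, assumed to vary like the other groups. Under 10 alternatives the differences of Slc22a7, Slco1a6 and Slc22a19 passed in all 10, that of Slco3a1 in 8 and that of Slc22a26 in 4.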

How the results depend on the processing

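The number of members called in PBS against WT (1) was 7 with no filter beyond 1 read, 5 by the DESeq2 Wald test, 4 by edgeR's exact test, 6 with only the 6 libraries compared and 0 with the Y-linked term; leaving out 1 library gave 0 to 7, with 7 without SN-011 replicate 2. Calls over all genes moved too, from 313 to 707 of 30892, 726, 683, 751 and 198 in these settings, and 774 without SN-011 replicate 2. In SN-011 against PBS (0) it was 1 in libraries with Y-linked reads, fitted alone or with a mean per group and class, and leaving out 1 library gave 0 to 8, with 8 without SN-011 replicate 2, beside 107, 82 and 519 of all genes. In SN-011 against WT (1) it was 5 with no filter, 4 by the DESeq2 Wald test, 2 by the exact test, 0 with only the 6 libraries, 4 with the Y-linked term, 0 in libraries with Y-linked reads fitted alone and 2 with a mean per group and class, and 8 in Xist libraries fitted alone and 9 with a mean per group and class; leaving out 1 library gave 0 to 5, with 5 without SN-011 replicate 2. All genes called there went from 213 to 607, 816, 601, 43, 656, 356, 410, 461 and 582 in the order given, and 376 without SN-011 replicate 2. The 11 members of the Y-linked term numbered 9 to 16 without 1 library, beside 213 to 1164 of all genes (607); 9 went with 364 genes (without SN-011 replicate 1), 16 with 1164 (without WT replicate 3) and 10 with 213 (without SN-011 replicate 2). The interaction (5 members) gave 3 without WT replicate 1 or 2, beside 21 and 33 of all genes (83), and 3 to 5 over the libraries left out, beside 21 to 190. The cause was not tested.

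Directions reversed for members that were not called. In PBS against WT, Slc22a12 was -0.39 with the Y-linked term, and -0.15 and -0.14 in libraries with Y-linked reads, fitted alone and with a mean per group and class, where Slc22a18 was 0.000 and 0.003; Slc22a18 was 0.004 without WT replicate 1 and 0.032 without PBS replicate 1. In SN-011 against PBS with the Y-linked term, Slc22a12 was 0.20, Slc47a1 0.019 and Slc22a6 0.15. In libraries with Y-linked reads, fitted alone and with a mean per group and class, Slc22a12 was 0.44 and 0.42, Slc22a18 0.19 and 0.16, Slc47a1 0.16 and 0.14, and Slc22a6 0.32 and 0.30. In SN-011 against WT, Slc22a12 was 0.29 and 0.27 and Slc22a18 0.19 and 0.17 in those fits. Slc22a12 was 0.32 without WT replicate 3, 0.25 without SN-011 replicate 1 and 0.19 without SN-011 replicate 3. Without SN-011 replicate 2, Slc47a1 was -0.005 and Slc22a6 -0.29 there, and Slc22a18 -0.055 for the Y-linked term. Over the libraries left out, Slc22a18 ran from -0.111 in PBS against WT and to 0.512 for the Y-linked term, and in SN-011 against WT Slc22a12 ran from -0.791 and Slc22a6 to 0.658. Of 630 alternatives of single members 546 kept direction and call, 36 lost and 20 gained a call.

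Libraries share replicate numbers but not by a stated pairing, and r of same-numbered deviations ran from -0.294 to 0.242. Pairs of unlike number ran from -0.368 to 0.380. Between PBS and SN-011 the same-numbered pairs had 0.198, 0.242 and 0.098, and the others -0.216 to 0.091. With a replicate block, members called were 1 in PBS against WT, 0 in SN-011 against PBS, 2 in SN-011 against WT (Slco2a1 added, edgeR adjusted p = 0.0480) and 10 for the Y-linked term (Slc22a27 lost, adjusted p = 0.0728), beside 312, 0, 231 and 494 of all genes. With 3 libraries per group and 1 in some classes, small differences may have been missed, and reads shared by near-identical copies limit the levels of the chromosome 19 genes.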
